A study of Danio rerio with 8 samples.

Results

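Notch ligands, the receptor gene notch1a and her genes were followed in zebrafish embryos that had received a morpholino against prmt6, which encodes an arginine methyltransferase of chromatin. Members were all probe sets whose single platform symbol, or a synonym of that gene, was dla, dlc, dld, notch1a, her1, her3, her5, her6, her7 or her9. This gave 15 probe sets from 11 gene records, of 15502 probe sets with 8793 gene symbols on the array. Controls received 3 nl of cMO, a control morpholino at 0.3 mM, injected into embryos of 1 or 2 cells. The other groups received prmt6 MO at the same volume and concentration. The labels state neither a strain nor any genetic alteration. Whole embryos were collected at 6 hours post fertilization (hpf), early in gastrulation, after MO embryos had been sorted by shape as normal, mild or severe. There were 3 control, 3 severe, 1 mild and 1 normal array, so the mild and normal classes have no replicates of their own. The titles call the replicates biological without naming separate clutches. A p-value thus sets a difference against the spread between these arrays, which also limits the precision of every value. For the mild and normal classes that spread came from the control and severe arrays alone. Morpholinos are antisense oligomers that block the use of an RNA, often without removing it. Because MO embryos were sorted by shape before RNA was taken, severity is not an assigned treatment.

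Notch signalling passes between touching cells. A Delta or Jagged ligand on one cell binds a Notch receptor on its neighbour, whose intracellular part is then cut loose. That fragment joins the DNA-binding protein Rbpj to switch on target genes. Many of them are in the her (hairy and Enhancer of split related) family of transcriptional repressors. In fish embryos the pathway is best known for choosing neurons in the neural plate and for the segmentation clock of the presomitic mesoderm, where her1, her7 and dlc are expressed in cycles. Several her genes are also controlled by other signals and mark regions of the early neural plate.

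Values are log2 MAS5 signals, the single summary that the Affymetrix software gives per probe set. Each array's median lay between log2 6.47 and 6.80. Array background was taken as log2 5.10, the 95th percentile of 17 negative control probe sets, and a level below it has no order. The prmt6 probe set itself read 9.67, 9.87 and 9.56 on the controls, 11.30, 11.10 and 11.41 on the severe arrays, 11.13 on the mild array and 11.22 on the normal array. Every MO array was thus above every control, and the transcript level checks neither the knockdown nor the labels. No label names a batch. For her3 and her9, control 3 and severe 3 read highest in their groups, toward the mild and normal arrays, as given below. Control 3 was the lowest control, near the normal array, for the brighter dlc probe sets, her1, her5 and her6. For her7 it lay between the other controls, and for the remaining members not wholly under background it was the highest.

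The name dld matched more than one gene record. One probe set carries the symbol dld (Entrez 399479), and another carries the symbol dldh with dld as a synonym (Entrez 30138). In zebrafish work dld is deltaD, a Notch ligand, while DLD in human usage is the mitochondrial enzyme dihydrolipoamide dehydrogenase, for which dldh has also been written. As background, Entrez 30138 is the record long used for deltaD and Entrez 399479 that of the enzyme, which is no Notch gene. The tables used here give no product names with which to check this, so both probe sets are reported by Entrez number. The counts of members below include both. Without Entrez 399479, which passed in no comparison in either fit, the calls stay as given, out of 14 probe sets in place of 15 and 9 tested ones in place of 10. Their values differed widely, as given below.

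dlc, the Notch ligand gene of the clock, her1 and her7, its cyclic repressors, and the dld record Entrez 30138 were far lower in severe embryos than in controls. The mild array also read low for these genes, and the normal array lay near the controls. In contrast her5, a repressor of neuron formation known from the midbrain-hindbrain boundary, was higher in severe embryos, by 1.07 on the log2 scale. For notch1a and for the dld record Entrez 399479, no difference passed the test. The dim probe sets of dla, her3 and her9 gave no call in severe embryos.

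Of the 15 probe sets, 10 had an 8-array mean that reached the 40th percentile, log2 5.59, and entered the main limma fit of 9301 probe sets. The 5 below it were those of dla, her1 and her9, the dimmest of the 3 for dlc and the dimmer of the pair for her3. A gene that falls to background can drop below such a filter because it fell, as her1 shows, so the fit of all 15502 probe sets is given for these. In the fit without the filter, 6 of 15 member probe sets passed an adjusted p of 0.05 for severe against control, 5 lower and 1 higher, while 23.2% of all probe sets passed (11.4% lower, 11.8% higher). The median difference of the 15 was -0.67 and that of all probe sets 0.06 on the log2 scale. In the main fit 5 of the 10 passed, 4 lower and 1 higher, where 38.6% of all tested probe sets passed (17.6% lower, 21.0% higher). The 4 lower ones, dlc probe sets 1 and 2, Entrez 30138 and her7, had severe means under the filter. Of these, dlc probe set 2 entered narrowly, with an 8-array mean of 5.85, through its control and normal arrays. The main-fit count thus leans toward genes bright in the controls. Severe and control arrays did not overlap for 10 of the 15 member probe sets, 8 lower and 2 higher, against 39.6% of all probe sets (18.6% lower, 21.0% higher). The 8 include all 3 probe sets of dlc. Among them, dlc probe set 3 was under background on every array, where a level has no order. The share of all probe sets likewise includes dim ones.

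**Figure D1:**
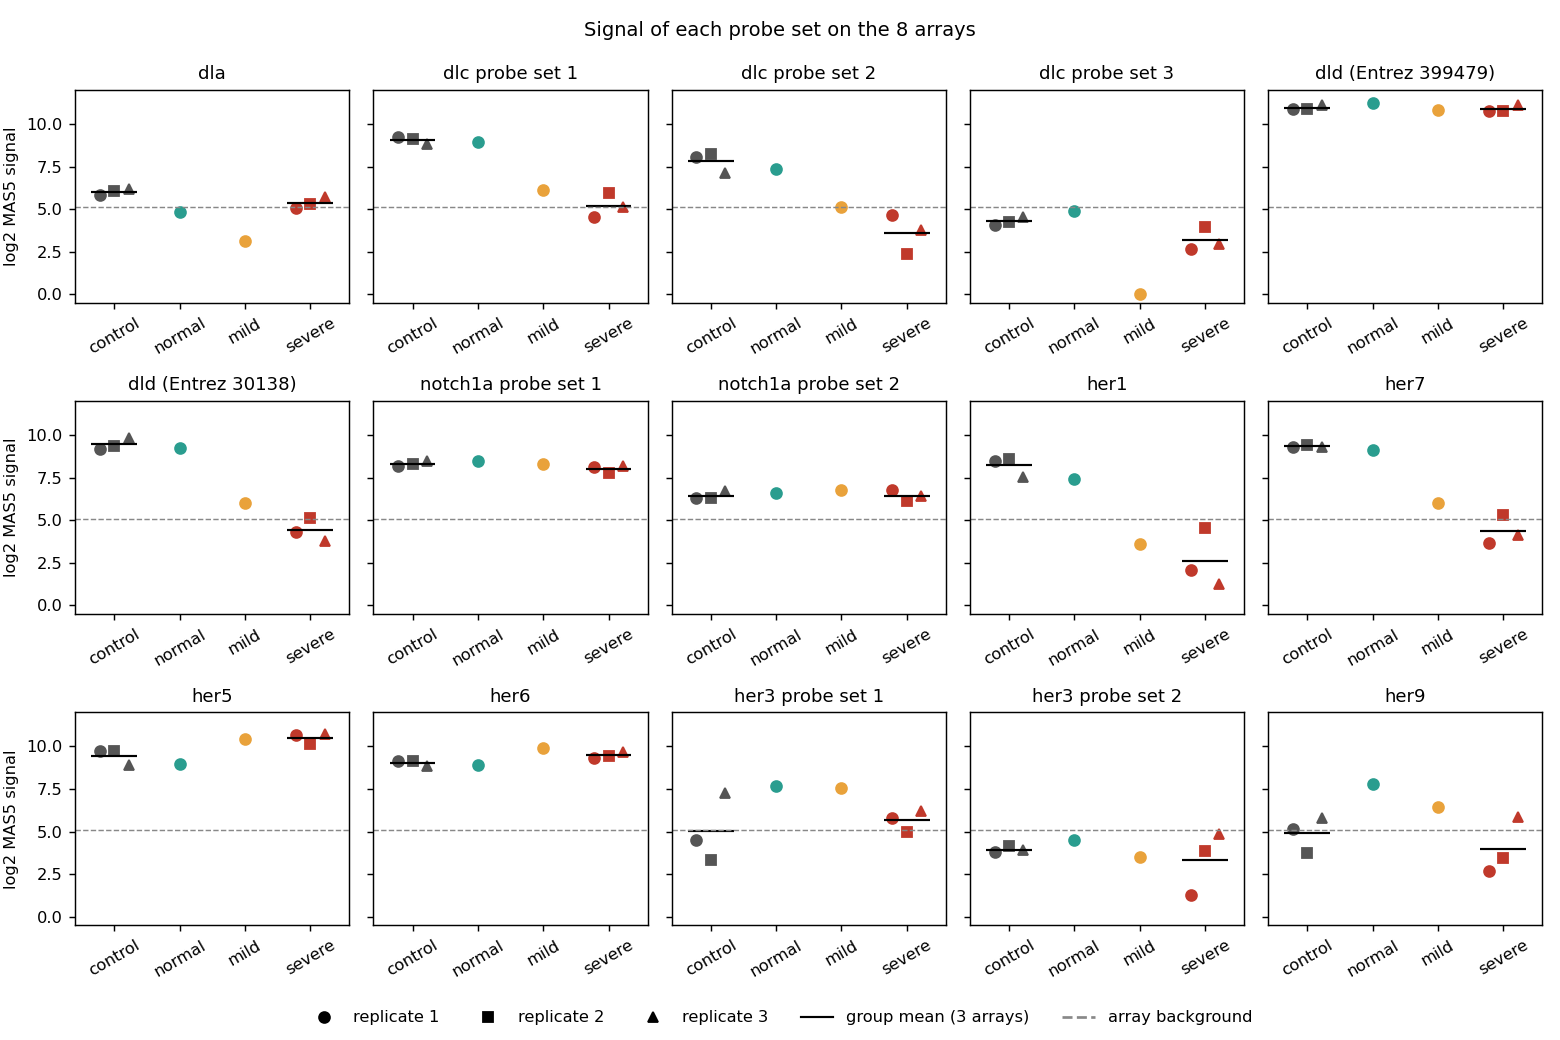
Log2 MAS5 signal (vertical axis) of each of the 15 probe sets on the 8 arrays, grouped as control, normal, mild and severe. Symbols mark replicate numbers, short lines are means of 3 arrays and the dashed line is the array background of 5.10. The mild and normal arrays are drawn as circles, though their titles give no replicate number. The probe sets of her7, her1, the dld record Entrez 30138 and dlc 1 and 2 drop from the control and normal arrays to the mild and severe ones, while for notch1a 1 the severe arrays lie just below the controls, and for notch1a 2 and Entrez 399479 the groups overlap.

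The brightest dlc probe set (probe set 1, whose suffix marks probes shared between transcripts) read 9.23, 9.15 and 8.85 on the controls. It read 4.55, 5.93 and 5.15 on the severe arrays, 6.15 on the mild array and 8.93 on the normal array. All severe arrays lay below all controls, and the mild array lay between both groups. The difference between severe and control was -3.87 (SE 0.35, limma adjusted p = 0.000117), or 14.6-fold, with 2 of 3 severe arrays above background, so that its size is uncertain.

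A second dlc probe set, with another cluster number in its identifier, also separated the groups. It read 8.08, 8.27 and 7.13 on the controls and 4.67, 2.39 and 3.77 on the severe arrays. All 3 severe arrays were under the background, so dlc was at least 6.60-fold lower there by this probe set (limma adjusted p = 0.000598; measured means 7.83 and 3.61). The mild array read 5.15, just above the background, and the normal array 7.36. The dlc probe set 3 stayed under the background on every array, from 0.00 on the mild array to 4.89 on the normal array, and gives no level.

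The dld record Entrez 30138 read 9.18, 9.35 and 9.85 on the controls and 4.33, 5.17 and 3.81 on the severe arrays. The mild array read 6.02 and the normal array 9.24. Groups did not overlap, and only severe 2 was above background among the severe arrays. Its severe minus control difference was -5.03 (SE 0.37, limma adjusted p = 5.86e-05). The record Entrez 399479 behaved otherwise, with 10.90, 10.86 and 11.14 on the controls, 10.78, 10.80 and 11.14 on the severe arrays, 10.83 on the mild array and 11.26 on the normal array. Those values overlap, and the severe minus control difference of -0.06 had a 95% interval from -0.39 to 0.26 (limma adjusted p = 0.765).

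The remaining ligand gene, dla, which is expressed in newly forming neurons, was close to background. Controls read 5.83, 6.08 and 6.18, severe arrays 5.07, 5.28 and 5.73, the mild array 3.12 and the normal array 4.83. Severe arrays lay below the controls but by little (difference -0.67, interval -1.52 to 0.18; limma adjusted p = 0.256, tested without the filter). The mild and the normal array each read under background, and the control mean lay only 1.90-fold above it. The difference from control was -2.91 for the mild array and -1.20 for the normal array (interval -2.41 to -0.0001), of uncertain size. For the mild array this passed without the filter (limma adjusted p = 0.0134), a call lost without control 2 (limma adjusted p = 0.052), and for the normal array it did not (limma adjusted p = 0.583).

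Neither probe set of the receptor gene notch1a passed the test. The brighter notch1a probe set read 8.22, 8.33 and 8.48 on the controls, 8.13, 7.77 and 8.17 on the severe arrays, 8.30 on the mild array and 8.50 on the normal array. Its severe arrays lay just below the controls, and the difference of -0.32 (interval -0.78 to 0.14) did not pass (limma adjusted p = 0.247). The dimmer one, whose suffix warns of cross-hybridising probes, ranged from 6.17 to 6.76 with overlap of all groups (difference 0.02, interval -0.60 to 0.63; limma adjusted p = 0.971).

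her7, a cyclic repressor of the segmentation clock, had the tightest controls of the members that fell. It read 9.30, 9.41 and 9.33 on the controls, 3.65, 5.34 and 4.12 on the severe arrays, 6.05 on the mild array and 9.13 on the normal array. Only severe 2 lay above background among severe arrays. The fitted difference of -4.98 (SE 0.40, limma adjusted p = 7.73e-05) is thus of uncertain size.

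her1, its partner in the clock, was tested only without the filter. It read 8.51, 8.61 and 7.58 on the controls, 2.09, 4.57 and 1.25 on the severe arrays, 3.62 on the mild array and 7.44 on the normal array. All severe arrays and the mild array were under the background, so her1 was at least 8.74-fold lower in each. The limma adjusted p without the filter was 0.000746 for severe and 0.0314 for mild against control. The mild call was lost without control 1, 2 or 3 (limma adjusted p = 0.0841, 0.0861 and 0.0567).

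In the RefSeq table of assembly GRCz12tu, her1 and her7 are neighbours with no protein-coding gene between them. The coding gene on the other side of her1, mepcea, read 11.18, 11.18 and 10.71 on the controls and 11.58, 11.56 and 11.46 on the severe arrays with its brighter probe set. mepcea rose slightly by this probe set (difference 0.51, limma adjusted p = 0.039 without the filter) and differed by 0.35 by a dimmer one (limma adjusted p = 0.377). The third coding gene on that side, ephb4a, read 5.95, 6.02 and 5.91 on the controls and 2.18, 2.16 and 4.79 on the severe arrays, all 3 under background (limma adjusted p = 0.0138 without the filter). No probe set was named for the gene between these, dlg4a, or for the next 3 coding genes beyond her7. These neighbours were looked up after the values of her1 and her7 were known.

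Among the other her genes, her5 read 9.71, 9.71 and 8.90 on the controls, 10.65, 10.13 and 10.75 on the severe arrays, 10.45 on the mild array and 8.96 on the normal array. Its severe arrays were all above its controls (difference 1.07, SE 0.25, limma adjusted p = 0.00983). Scaling arrays on their hybridisation controls ended this call (0.79, limma adjusted p = 0.0832). her6, the fish relative of Hes1, read 9.15, 9.15 and 8.82 on the controls, 9.35, 9.41 and 9.68 on the severe arrays, 9.89 on the mild array and 8.93 on the normal array. Severe arrays lay above the controls, but the difference of 0.44 (interval 0.05 to 0.82) did not pass (limma adjusted p = 0.0702).

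The probe sets of her3 and her9 were dim and varied within groups. her3, which is repressed by Notch signalling and holds back the proneural gene neurog1, read 4.51, 3.34 and 7.25 on the controls with its brighter probe set. The severe arrays read 5.80, 4.96 and 6.23, the mild array 7.55 and the normal array 7.69. Control 3 thus sat near the mild and normal arrays, above controls 1 and 2. The severe minus control difference was 0.63 (limma adjusted p = 0.587), and without control 3 it was 1.74 and passed (limma adjusted p = 0.0344). The mild minus control difference of 2.52 behaved likewise (limma adjusted p = 0.197, and 0.0214 without control 3). So did severe minus normal, at -2.02 (limma adjusted p = 0.241, and 0.0486 without control 3). The other her3 probe set lay under background on all arrays, from 1.30 to 4.85.

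her9, a repressor of neuron formation known to respond to BMP signals, read 5.13, 3.72 and 5.81 on the controls, 2.68, 3.45 and 5.85 on the severe arrays, 6.45 on the mild array and 7.78 on the normal array. Severe 3 was at the level of control 3, and the normal array was the highest. Without the filter, the difference of 2.89 between normal and control arrays had an unadjusted p of 0.0321 and did not pass (limma adjusted p = 0.543). Severe minus normal was -3.78 (limma adjusted p = 0.0647, and 0.0104 without severe 3).

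Mild embryos, with a weaker malformation, were set against the controls next. In the fit without the filter 6 of 15 member probe sets passed, all lower, where 7.33% of all probe sets passed (5.32% lower, 2.01% higher). In the main fit 4 of 10 passed, 3 lower and 1 higher, where 13.5% passed (8.78% lower, 4.69% higher). dlc fell by 2.93 with probe set 1 (SE 0.49, limma adjusted p = 0.00849), the dld record Entrez 30138 fell by 3.44 (SE 0.52, limma adjusted p = 0.00542) and her7 fell by 3.30 (SE 0.57, limma adjusted p = 0.00879). dlc probe set 2 differed by -2.68 without passing (limma adjusted p = 0.0554), though it passed without severe 1 or severe 2 (limma adjusted p = 0.0339 and 0.027). The further calls without the filter were those of dla, her1 and dlc probe set 3, the last under background on every array and lost without any 1 control. On the mild array dlc probe sets 1 and 2, Entrez 30138 and her7 read above all 3 severe arrays, whereas her1, under background on all 4 arrays, has no order. A difference between mild and severe was not tested.

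her6 was higher on the mild array by 0.84 (limma adjusted p = 0.0494). This call was lost under 10 of 15 alternatives, among them those without control 1, 2 or 3 (limma adjusted p = 0.0995, 0.0976 and 0.0742), severe 1 (0.0576) or severe 2 (0.0793). her5 differed by 1.01 in the mild array without passing (limma adjusted p = 0.0979). The mild array was also below control 3, the control nearest to it for her3, with dlc probe set 1 at 6.15 against 8.85 and her7 at 6.05 against 9.33.

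Normal-looking embryos, which carried the same morpholino, showed no member call against control. In limma 0 of 10 member probe sets passed in the main fit and 0 of 15 without the filter. The background was low as well, with 0.0430% and 0.0129% of probe sets passing. At an unadjusted p under 0.05 there were 0 of 10 members in the main fit, beside 865 of all 9301 tested probe sets. Without the filter there were 3 of 15 members, beside 1327 of all 15502 probe sets. These 3 were dla, her3 probe set 1 and her9, named after their values were seen. her3 probe set 1 differed by 2.65 (interval -0.04 to 5.35, limma adjusted p = 0.543), and with replicates 1 and 2 only by 3.76, which passed (limma adjusted p = 0.0126). For dlc probe set 1 the difference was -0.15, with an interval from -1.27 to 0.97. For her7 it was -0.22 (interval -1.50 to 1.06) and for Entrez 30138 -0.22 (interval -1.39 to 0.95). With 1 normal array these intervals include falls of 2-fold, so the values do not show that these genes were unaltered.

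**Figure D2:**
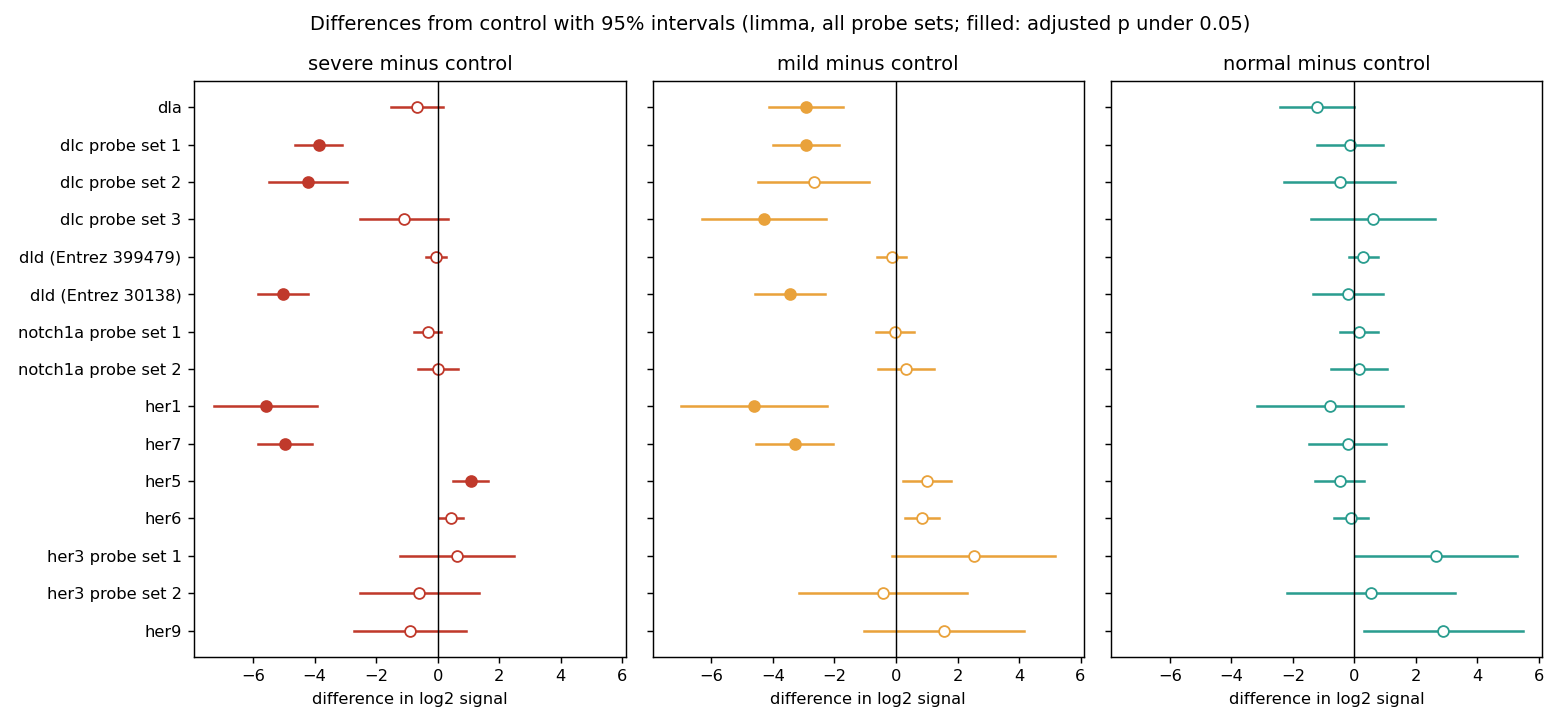
Difference in log2 signal from the control mean (horizontal axis) for severe, mild and normal embryos, with 95% intervals from the limma fit of all 15502 probe sets; filled points passed an adjusted p of 0.05. The dlc 1 and 2, Entrez 30138, her1 and her7 intervals lie below 0 for severe and mild arrays and span 0 for the normal array.

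Severe and normal-looking MO embryos were also compared directly, a comparison that uses no control array as a group. Of 10 member probe sets in the main fit 5 passed, 4 lower and 1 higher in severe embryos, where 21.7% of all tested probe sets passed (10.4% lower, 11.3% higher). The 4 lower ones again had severe means under the filter, and dlc probe set 2 entered narrowly through its control and normal arrays. dlc differed by -3.72 and -3.74 with probe sets 1 and 2 (limma adjusted p = 0.0044 and 0.0154), Entrez 30138 by -4.81 (limma adjusted p = 0.00314) and her7 by -4.76 (limma adjusted p = 0.00356). her5 was 1.55 higher (limma adjusted p = 0.0205), which no longer passed with hybridisation control scaling (limma adjusted p = 0.0524) or without severe 1 (limma adjusted p = 0.0518). her1 differed by -4.80 without the filter (limma adjusted p = 0.0238, and 0.0633 without severe 1 or 0.0537 with hybridisation control scaling). Without the filter 6 of 15 passed, against 11.1% of all probe sets (5.38% lower, 5.74% higher).

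Other genes of the pathway were counted from lists, with 1 probe set per gene. Among other Notch ligands and receptors 3 of 5 tested genes fell in severe embryos and 0 rose, where 17.6% of all tested probe sets fell and 21.0% rose. The list's median was -1.18, against 0.11 for all tested probe sets. Of its 7 genes on the array, jag1b and notch1b were too dim for the main fit. dlb and jag1a passed the filter of 5.585 narrowly, with 8-array means of 5.783 and 5.592, through their control and normal arrays. The count and the median thus lean toward genes bright in the controls and do not stand for the list as a whole. The Delta gene dlb read 6.62, 6.84 and 6.87 on the controls and 3.71, 4.89 and 5.02 on the severe arrays, all 3 under background (limma adjusted p = 0.00186). The Jagged gene jag1a fell by 2.77 (limma adjusted p = 0.0163; 1 of 3 severe arrays above background) and the receptor gene notch3 by 1.18 (limma adjusted p = 0.0143). The receptor gene notch2 differed by 0.56 without passing (limma adjusted p = 0.125), and its other tested probe set by 0.02 (limma adjusted p = 0.959).

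Of 11 tested genes that process the ligand and receptor 1 rose and 1 fell, where 38.6% of all tested probe sets passed. Both encode Fringe glycosyltransferases, which modify Notch. rfng was 0.74 higher in severe embryos (limma adjusted p = 0.0102) and lfng fell by 0.52 (limma adjusted p = 0.0289). The list's median was -0.10. The O-fucosyltransferase gene pofut1 and the ADAM protease gene adam17a, at -0.56 and -0.59, did not pass (limma adjusted p = 0.061 and 0.0662). Other tested probe sets of pofut1 differed by 0.03 and -0.35, also without passing (limma adjusted p = 0.934 and 0.587). Of 21 listed nuclear and corepressor genes only 7 had a named probe set. All of these were corepressor genes, so Rbpj itself was not read. Among the 7, all tested, 1 fell, the Groucho-type corepressor tle2a, by 0.36 (limma adjusted p = 0.0307). The median was -0.01, again beside 38.6% of all tested probe sets passing. tle3a differed by 0.88 (limma adjusted p = 0.0635), hdac1 by -0.33 (limma adjusted p = 0.0804) and ctbp1 by 0.33 (limma adjusted p = 0.133), none of them past the threshold.

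Only 3 of 10 other her, hes and hey genes on the array passed the filter, and 2 of these fell, where 17.6% of all tested probe sets fell. hes6, a partner that binds Her proteins, read 11.24, 11.14 and 11.61 on the controls, 8.15, 8.47 and 8.53 on the severe arrays, 8.85 on the mild array and 10.63 on the normal array. It was well above background throughout, and fell by 2.95 in severe embryos (SE 0.18, limma adjusted p = 3.26e-05) and fell by 2.48 on the mild array (limma adjusted p = 0.00201). her8a fell by 1.83 (limma adjusted p = 0.0027), while hey1 differed by 0.40 (limma adjusted p = 0.273). Of 11 proneural and early neuron genes on the array 8 were under background on all controls, and only 1, insm1b, passed the filter. It fell by 1.54 (limma adjusted p = 0.00584), where 17.6% of all tested probe sets fell. Its 8-array mean of 5.711 passed the filter of 5.585 narrowly, through its control and normal arrays. This single call thus does not stand for the list. neurog1, too dim for the main fit and named after its values were seen, was under background on all controls. It was above background on 2 of 3 severe arrays, on severe 2 only just (5.15). Of the others too dim for the main fit, neurod4 was above background on 0 controls and 1 severe array. The other direction held for ascl1a (3 controls, 2 severe arrays) and elavl3 (2 controls, 1 severe array).

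Of 10 presomitic mesoderm partners of the clock on the array, tbx6, mespba and nrarpb were too dim for the main fit. For tbx6 all controls were under background. mespaa entered with an 8-array mean of 5.79 through its control and normal arrays, while its severe arrays were all under background. Among the tested genes of this list 6 of 7 fell and 0 rose, where 17.6% of tested probe sets fell, and the median was -2.62. They include the mesoderm factor msgn1, which fell by 3.80 (limma adjusted p = 0.000337), the T-box genes tbxta, by 2.62 (limma adjusted p = 0.000269), and tbx16, by 1.74 (limma adjusted p = 9.5e-05), and hes6, which stands in both lists. By another probe set tbx16 differed by -1.37, which did not pass (limma adjusted p = 0.0873). The exception, the Notch target nrarpa, named after its value was seen, differed by -0.12 (limma adjusted p = 0.695). Its other tested probe sets differed by 0.27 and 0.51, also without passing (limma adjusted p = 0.451 and 0.29). tbx16 and tbxta also stand in the list of margin markers. On the mild array 4 of these 7 fell, where 8.78% of tested probe sets fell.

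**Figure D3:**
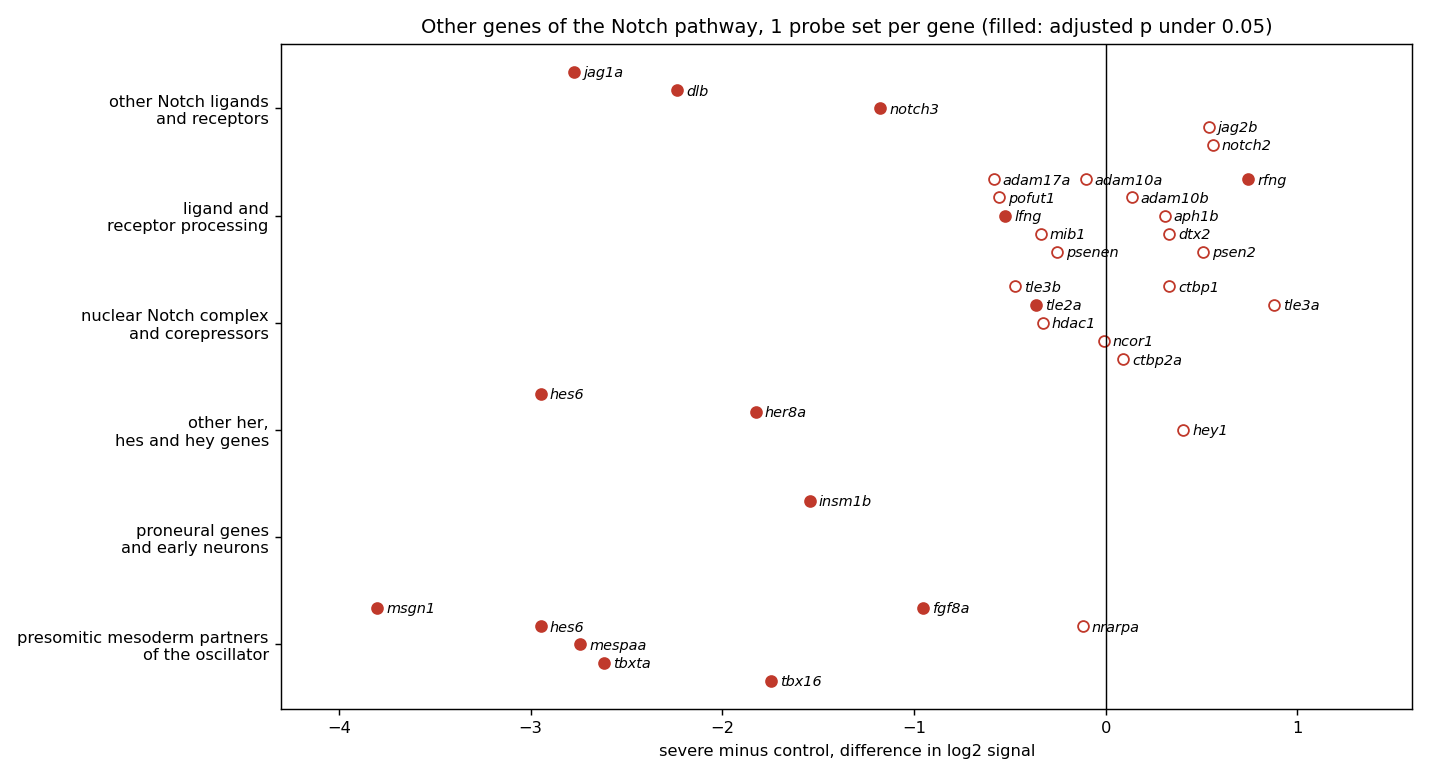
Severe minus control difference in log2 signal (horizontal axis) for the tested genes of the 6 pathway lists (rows); filled points passed an adjusted p of 0.05. The presomitic mesoderm genes lie between -3.80 and -0.12, whereas the processing and corepressor genes lie within 0.88 of 0.

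Markers of embryonic regions moved with these falls, and their counts stand beside 17.6% of all tested probe sets that fell and 21.0% that rose in severe embryos. The list of 10 margin and mesendoderm markers was a guide to the ring of cells where dlc, her1 and her7 are first expressed. Not every marker in it is confined to that ring. The signal of these markers summed to between 19669 and 22598 on the controls (linear signal). The sums were 5417 to 8723 on the severe arrays, 11137 on the mild array and 18340 on the normal array, and 7 of 9 tested markers fell in severe embryos. Neural and epiblast markers summed to 30201 to 34561 on the controls and 22438 to 25060 on the severe arrays, with 4 of 7 tested markers lower and 1 higher. Their mild sum was 24725 and their normal sum 33436. Such a sum weighs bright genes most, and the brightest, pou5f3, differed by -0.21 without passing (limma adjusted p = 0.205). Single markers ran from -5.26 for sox2 (1 of 3 severe arrays above background) to 1.63 for sox19b. These 3 were named after their values were seen. In these whole-embryo samples, fewer cells of a type and less RNA per cell cannot be told apart.

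Other layers shifted too, with the mild array again between the severe and control arrays, so this order was not particular to the margin. The enveloping layer, the outer skin of the embryo, summed to 44214 to 60740 on the controls and 7471 to 13780 on the severe arrays, and 12 of 14 markers fell. Its mild sum was 14641 and its normal sum 47119. The median severe difference was -3.71 in this list and -1.74 in the margin list. Of the 12, anxa1b and anxa1c were under background on all severe arrays and the mild array. They entered the fit through their control and normal arrays. Yolk syncytial layer markers summed to 16355 to 24886 and 5436 to 10609, and 6 of 7 tested markers fell while 1 rose. Here the mild array summed to 11966 and the normal array to 19621. Maternal transcripts of the egg summed to 11228 to 13838 on the controls and 29341 to 33063 on the severe arrays, and 8 of 9 rose. For these the mild sum was 26641 and the normal sum 15480. No marker on the array in these 5 lists was at 0 on any array. The part of these shifts in the falls of dlc, her1 and her7 was not tested.

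**Figure D4:**
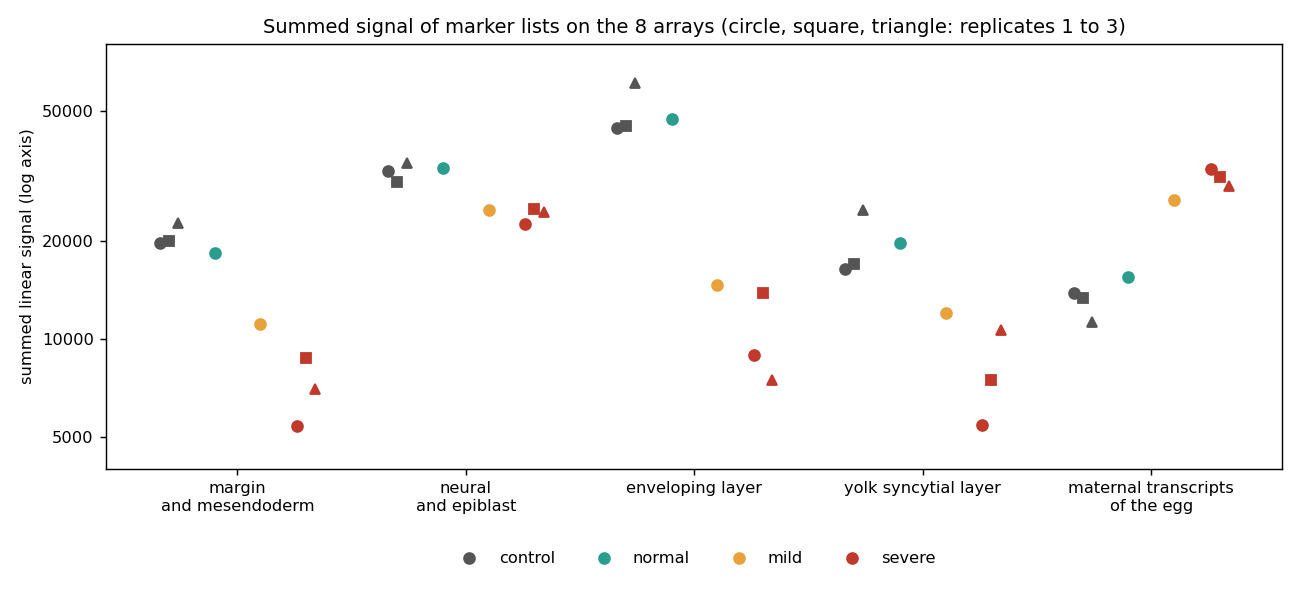
Summed linear signal (log axis) of the 5 marker lists on each array, coloured by group, with circle, square and triangle for replicates 1 to 3. The mild and normal arrays are drawn as circles, though their titles give no replicate number. Margin sums are lowest on the severe arrays (5417 to 8723), with the mild array at 11137 and the normal array near the controls. Enveloping and yolk syncytial layer sums have the same order, and maternal transcripts run the other way.

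For each tested member gene the 2 most alike genes were sought by Pearson correlation over the 8 arrays, leaving out the members themselves and clone-style symbols. Among members, dlc probe set 1 and her7 gave r = 0.996 with each other, and Entrez 30138 gave 0.981 and 0.991 with them. The 8 arrays share their groups, and the counts above 0.9 are over all 9300 other tested probe sets. Outside the members dlc was most like ptgs2a (r = 0.993), a prostaglandin synthase gene, and yy1a (r = 0.992), a zinc finger factor gene, with 858 probe sets above 0.9. her7 was likewise most like ptgs2a (r = 0.996) and bambia (r = 0.994), a BMP target, with 886 above 0.9. Entrez 30138 was most like hnrnpul1 and cox10 (r = 0.997), with 926 above 0.9.

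Other members had fewer genes alike. her5 was most like rcor2 (r = 0.994) and tram1 (r = 0.986), with 389 probe sets above 0.9, and her6 like tmed3 (r = 0.982) and gpx1b (r = 0.978), with 120. her3 was most like npm2b (r = 0.985) and znf346 (r = 0.966), with 14 above 0.9. For notch1a the nearest were rasd1 and eif2a, with 39 above 0.9, and for Entrez 399479 ndufa1 (r = 0.973) and psmb4 (r = 0.936), with 8. Such values describe likeness over these arrays alone.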

How the data were processed

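The authors deposited 1 table of log2 values for 15617 probe sets on 8 arrays. Per the submitters' processing notes MAS5 was used; its version and settings are not given in the sources used here. In the deposited values the linear signal of each array averages 500 once 2% is trimmed from each end. They were used as deposited. MAS5 leaves dim probe sets noisy, and values stop at 0. No detection calls or sequence tables were used here. Gene positions from the RefSeq table of assembly GRCz12tu served only to find the neighbours of her1 and her7.

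Gene symbols came from the platform annotation, updated by Entrez number from RefSeq. Of 15502 probe sets without the 115 AFFX controls, 10795 had 1 symbol, 135 several and 4572 none. Groups came from the titles. The 9301 probe sets at or above the 40th percentile of the mean were fitted with limma 3.58.1 (group means, eBayes with trend, 4 residual degrees of freedom) in R 4.3.3, with Benjamini-Hochberg adjustment at 0.05. Single arrays were assumed to vary like the replicated groups. The fit was tested on simulated data. "At least" folds set the bright mean against background.

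Members, lists, tests and the background bound were chosen with earlier results of these data known. Every member was named. A list gene was represented by its brightest probe set, and up to 4 per list were named by smallest p. Likeness took the 2 nearest genes per tested member, leaving out members and clone-style symbols. Alternatives covered the pseudocount, scaling, filter, variance model, probe sets per gene, arrays in the fit, left-out replicates and a replicate block. Fits without the filter combined with hybridisation control scaling or left-out replicates were added after seeing the data. Figures used matplotlib 3.10.9.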

Additional observations from a re-analysis of the deposited data

How the results depend on the processing

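In severe against control, dlc probe sets 1 and 2, Entrez 30138 and her7 kept direction and call in every alternative that tested them, with differences from -4.23 to -3.37, -4.75 to -3.04, -5.39 to -4.23 and -5.46 to -4.14. her1, tested without the filter, kept its call in 7 of 7 (-6.56 to -4.90). Member calls were 5 for severe against control, 4 for mild, 0 for normal and 5 for severe against normal. At a 60th percentile filter, which leaves out most members, they were 1, 0, 0 and 1. With replicates 1 and 2 only they were 7 for mild, 1 for normal (her3) and 8 for severe against normal. With a single replicate left out they ranged from 5 to 6, 3 to 4, 0 to 0 and 4 to 6.

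Calls over all probe sets numbered 3587, 1253, 4 and 2017 in these comparisons. Scaling on 18 hybridisation control probe sets gave 2377 for severe against control, 0 for normal and 590 for severe against normal, and moved the median difference of severe against control from 0.11 to -0.17. Replicates 1 and 2 only gave 3037 for mild, 1094 for normal and 4797 for severe against normal. For normal, no filter gave 2, no trend 1 and quantile normalization 2. With 1 replicate left out the counts ran from 2739 to 4187, 615 to 1893, 0 to 14 and 1071 to 3322. Leaving out severe 3 gave the upper end of each. The lower ends came without severe 2, control 2, several arrays (0 without any 1 control or without severe 2) and severe 1. Counts more than 1.5 times from the full one also came without control 1 for mild (670) and without control 1, control 2 or severe 2 for severe against normal (1332, 1326 and 1117).

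Whether replicate numbers pair the samples was not settled. Deviations correlated at 0.337, -0.0723 and 0.338 for numbers 1, 2 and 3. Control 2 correlated best with severe 1 (0.385), while control 3 correlated best with severe 3 and at -0.452 with severe 1. With the replicate block 5 members and 4413 probe sets passed for severe against control. Values at or under array background limit the size of the falls.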
